A study of Mus musculus with 12 samples.

Results

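The genes described here lie in one stretch of mouse chromosome 12, in map order from Dus4l through Clmn. The stretch was chosen by its measured difference between the line carrying the hairpin sh 133 and the control line scr, where its signals were low in sh 133. That difference is therefore given as a description with no test. A member is a gene of the stretch whose brightest probe set assigned to 1 gene had a mean of log2 5 or more over the 12 arrays. Of 382 genes of the stretch with such a probe set, 116 reached that floor. The rule left out Fos, Max, Hif1a, Prkch, Sptb and Pole2, of which 2 (Hif1a and Pole2) reached the floor, so that 114 genes remained of the 5703 that reached it on all chromosomes. The remaining 266 genes lay under the floor, among them the bounding genes Dus4l, with a mean of 3.77, and Clmn, with a mean of 3.33. The first member on the map is therefore Hbp1 and the last is Dicer1. Just outside the floor were Dhrs7 at 4.94, Atxn3 at 4.95 and Ankmy2 at 4.95, and just inside were Numb at 5.01, Ap4s1 at 5.02 and Dicer1 at 5.07.

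The arrays came from I/11, an immature erythroid progenitor line from fetal liver of mice without p53, kept in serum-free medium with erythropoietin, stem cell factor and dexamethasone. All 3 lines had been infected with a pLKO lentivirus carrying puromycin resistance, with a scrambled shRNA in scr and with the Plcg1 hairpins PLCy1 sh 14 and PLCy1 sh 133 in the others. Plcg1 encodes phospholipase C gamma 1, an enzyme of receptor signalling. Each line was measured at 1, 6, 12 and 22 h on 1 array per time, and the labels do not give the event from which the hours count. They also do not say whether a line is 1 clone or a pool, or whether the times are separate cultures, so the spread reported here may be partly technical.

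Genes that follow one another on a chromosome share their place and not, as a rule, their task. The stretch holds subunits of the proteasome, which degrades ubiquitin-marked proteins, splicing factors, proteins of vesicle transport, enzymes of mitochondria and regulators of transcription and signalling. In erythroid progenitors such genes serve the general upkeep of the cell, while few are known for a task particular to red cells. One of these few is Plek2, a pleckstrin-family protein that acts on the actin cytoskeleton of maturing erythroblasts.

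The 250 bases before the start of the member of lowest sh 133 difference (Pygl), of the next lowest (Mideas) and of the member of highest difference (Hbp1) are shown to let the ends of the range be seen side by side. They come from RefSeq, assembly GRCm38.p6, and run 5′ to 3′ on the minus strand of chr12:70227684-70227933, chr12:84218882-84219131 and chr12:31950246-31950495. Capitals mark matches on either strand to 1 of 4 short motifs. The first is AGATAA, a form of the site bound by erythroid GATA factors. The next is GGGCGG, known as the GC box. The third is CCAAT, a common element of promoters. The last is TATAAA, the core of the TATA box, and none of the 4 is contained in another.
Pygl: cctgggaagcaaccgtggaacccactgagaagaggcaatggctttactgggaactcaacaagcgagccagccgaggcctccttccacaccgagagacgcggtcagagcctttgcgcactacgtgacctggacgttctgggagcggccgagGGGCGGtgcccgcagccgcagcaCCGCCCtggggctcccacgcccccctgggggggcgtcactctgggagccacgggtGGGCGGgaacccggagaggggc
Mideas: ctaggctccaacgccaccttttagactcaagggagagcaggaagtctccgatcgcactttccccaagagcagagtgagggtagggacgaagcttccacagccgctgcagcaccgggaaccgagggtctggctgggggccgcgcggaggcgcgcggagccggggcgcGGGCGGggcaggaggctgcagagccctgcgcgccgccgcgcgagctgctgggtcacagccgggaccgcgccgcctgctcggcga
Hbp1: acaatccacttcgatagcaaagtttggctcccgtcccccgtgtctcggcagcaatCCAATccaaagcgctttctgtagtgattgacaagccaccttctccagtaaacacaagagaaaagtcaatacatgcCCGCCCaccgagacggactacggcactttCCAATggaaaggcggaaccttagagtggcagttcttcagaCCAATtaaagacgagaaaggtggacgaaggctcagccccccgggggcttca
Each of these windows held a GC box, the one of Hbp1 also held the third motif, and none of the windows held the first or the last. A promoter sequence was matched for 102 of the 114 members. Of these, 8.82% held the GATA-factor motif, 55.9% the GC box, 38.2% the third motif and 3.92% the TATA motif. Over the 4718 genes at the floor with a sequence the shares were 5.13%, 63.4%, 37.7% and 5.62% in the same order, and over all 27025 sequences they were 10.3%, 32.9%, 34.5% and 13.0%. The median GC content was 59.8% in the members and 60.4% in the genes at the floor. A match is a description of letters and shows no binding.

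The arrays had medians of log2 1.84 to 1.92 and correlated with one another at 0.983 to 0.997. Plcg1 was read by the brightest of its 3 probe sets, whose mean of 4.36 lay under the floor. It read 4.31 to 4.74 in scr, 3.86 to 4.30 in sh 14 and 4.35 to 4.53 in sh 133, a mean difference from scr of -0.38 ± 0.27 (SD over the 4 times, n = 4) in sh 14 and of -0.12 ± 0.14 in sh 133. The sh 133 arrays overlapped those of scr, and at 22 h sh 133 was above scr by 0.08. Of 8 matched erythroid markers 7 reached the floor, among them Tfrc, Klf1 and Gata1, and Hba-a1 was at 0.97. Their summed level (log2) was 10.83 to 12.00 in scr, 10.58 to 11.41 in sh 14 and 10.90 to 11.77 in sh 133. On average the 7 at the floor were all below scr in sh 14. In sh 133 Gata1, Slc4a1 and Alas2 were above scr, and Tfrc, Klf1, Epor and Kit were below it. Alas2 had means of 5.43, 4.36 and 6.47 in scr, sh 14 and sh 133, and Slc4a1 had 7.16, 6.65 and 7.66. The summed level (log2) of 5 mast cell and basophil markers was 5.12 to 5.70 in scr, 6.66 to 7.00 in sh 14 and 5.54 to 6.06 in sh 133, with only Gata2 of the 5 at the floor and Mcpt8 at 0.94. On average all 5 were above scr in sh 14. In sh 133 Gata2 and Cpa3 were above scr, and Fcer1a, Ms4a2 and Mcpt8 were below it. The summed level of 3 megakaryocyte markers was 5.88 to 6.70, 7.56 to 8.04 and 6.77 to 8.13, and 2 of these 3 reached the floor. Of these 2, Pf4 had means of 4.06, 5.12 and 6.86 in scr, sh 14 and sh 133, and Itga2b had 5.76, 7.485 and 6.08. Markers of neutrophils, lymphocytes, fibroblasts and endothelium were all under the floor. The 3′ minus 5′ signal of actin, a sign of RNA length, was 0.34 log2 on the sh 133 array of 22 h and 0.51 to 0.63 on the others. The part of these levels in the values of the stretch was not tested. The array titles carry 2 date strings whose meaning the labels do not give. One is on all sh 14 arrays and on sh 133 at 6 and 12 h, the other on all scr arrays and on sh 133 at 1 and 22 h, so that no sh 14 array shares a string with scr.

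Along the stretch nearly all members were lower in sh 133 than in scr. The median over the 114 members of the mean difference at matched times was -0.54 log2, a signal 68.7% of that of scr, while the median over all 5703 genes at the floor was 0.01. The members' quartiles were -0.66 and -0.36, those of all genes at the floor -0.13 and 0.13, and 87 members lay from -0.75 to -0.25. Beyond these bounds 13 members were lower and 14 were higher, from Pygl at -1.12 to Hbp1 at 0.52. A mean difference below 0 was found in 110 members and in 2779 of the 5703 genes at the floor. The 4 members at or above 0 were Hbp1, Ifi27, Prkar2b and Fut8. A member's SD over the 4 times had a median of 0.16 and ran from 0.03 to 0.38. Each array averages over its cells, so fewer cells with a transcript and less of it per cell cannot be told apart, and DNA was not measured.

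**Figure D1:**
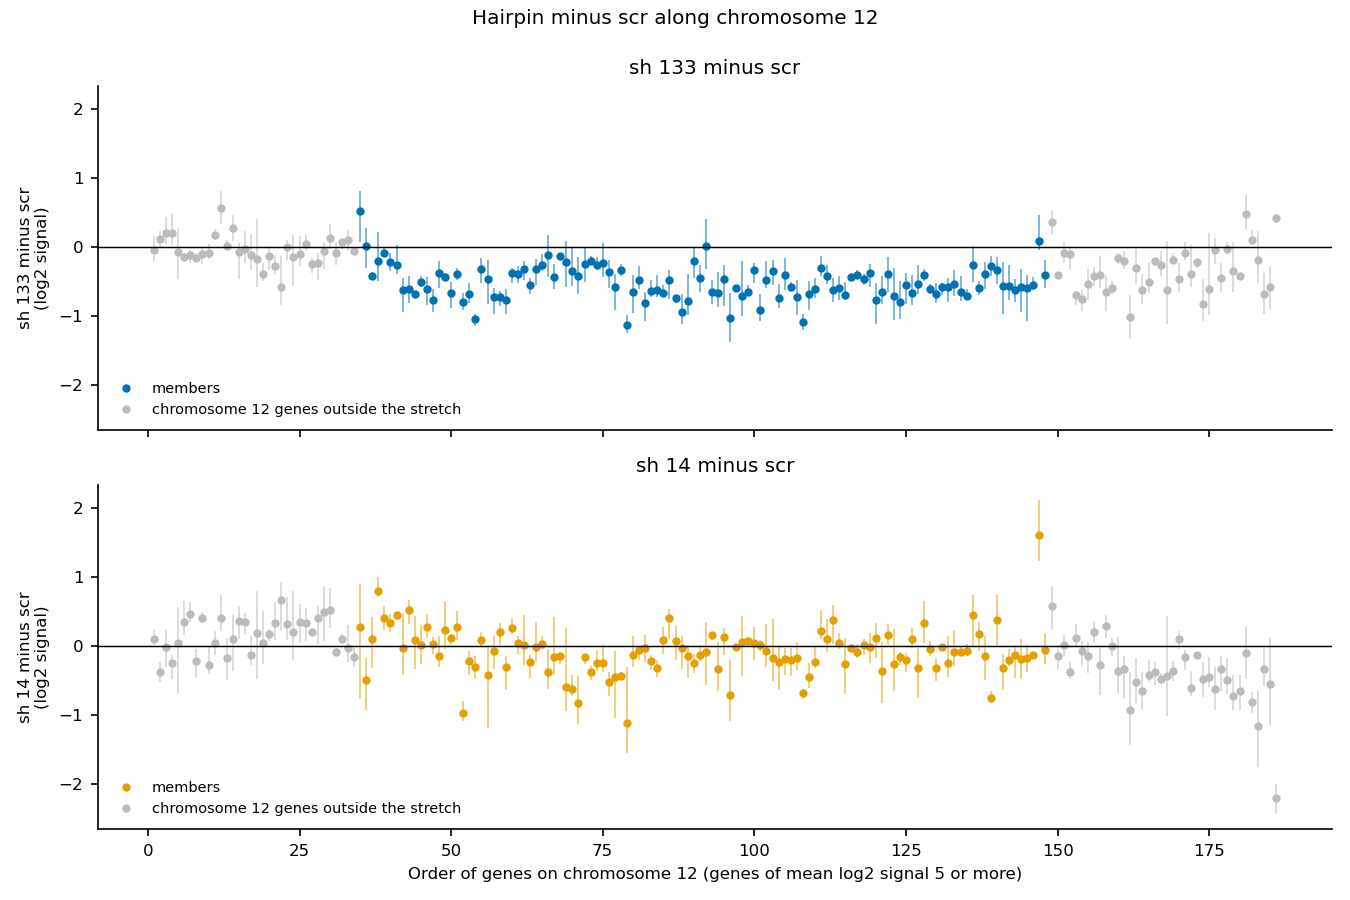
Mean log2 difference from scr over the 4 times (vertical axis) for the chromosome 12 genes at the floor in map order (horizontal axis), sh 133 in the upper and sh 14 in the lower panel. Vertical lines join the lowest and highest of the 4 times, members are coloured and other chromosome 12 genes grey. In sh 133 the members gather about their median of -0.54, and in sh 14 about -0.08.

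The low values were present at each time. The median over the members was -0.48 at 1 h, -0.51 at 6 h, -0.51 at 12 h and -0.54 at 22 h. Members below scr numbered 110, 109, 110 and 111 of 114. Of the 5703 genes at the floor, 2626, 2632, 2993 and 2948 were below scr at the same times. At 4 of 4 times 103 members were below scr, where 20.0% of the genes at the floor were. All 4 sh 133 arrays lay below all 4 scr arrays in 75 members, against 7.12% of the genes at the floor. No member had its sh 133 arrays all above scr, which 7.61% of the genes at the floor had. The rule used this contrast, and nothing is read from these counts. At 1 and 22 h, where sh 133 and scr share a date string, the median of the members' differences was -0.51, and at 6 and 12 h, where they do not, it was also -0.51.

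Across the 114 members, which are not independent of one another, the sh 133 differences at 6 and 12 h correlated at r = 0.81 (rho = 0.77) and those at 12 and 22 h at r = 0.78 (rho = 0.72). Those at 1 and 6 h correlated at r = 0.55 (rho = 0.55) and those at 1 and 22 h at r = 0.46 (rho = 0.38). Over all 5703 genes at the floor r was 0.85, 0.79, 0.60 and 0.44 for the same pairs of times, close to the values of the members. In the pairs 6 and 12 h and 1 and 22 h both times have the same arrangement of date strings.

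**Figure D2:**
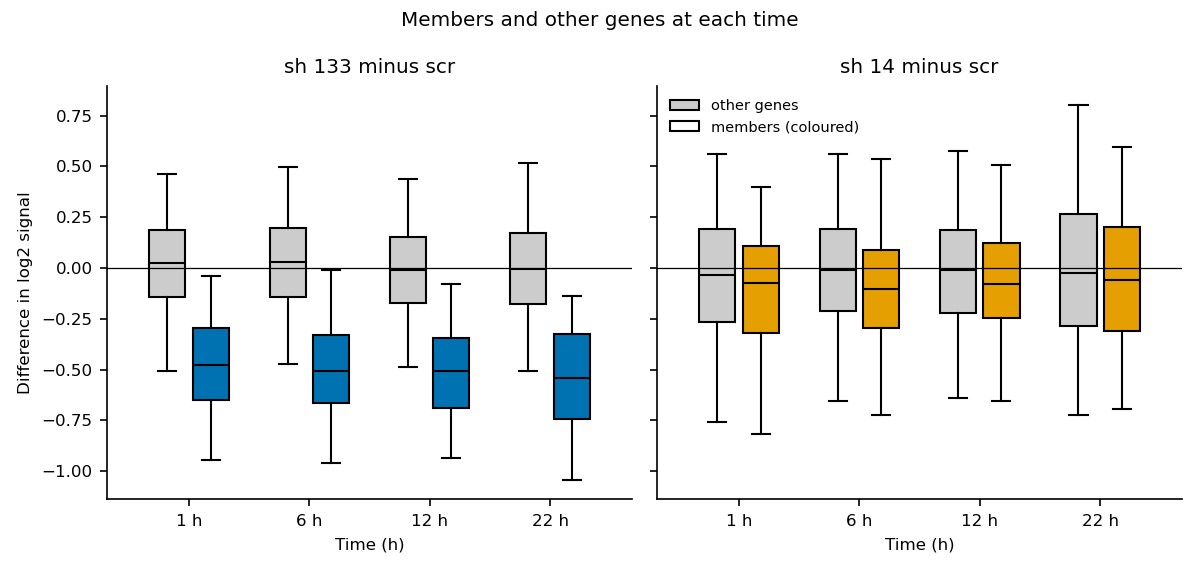
Log2 difference from scr (vertical axis) at 1, 6, 12 and 22 h (horizontal axis) for the members (coloured boxes) and the other genes at the floor (grey boxes), with sh 133 left and sh 14 right. Boxes span the quartiles with a line at the median, and whiskers run from the 5th to the 95th percentile. The sh 133 medians run from -0.54 to -0.48 and the sh 14 medians from -0.10 to -0.06.

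The line with the other hairpin had no such common shift. The sh 14 minus scr values share the scr arrays with the contrast above and are given beside it as values. Their median over the members was -0.08 (94.6% of the scr signal), against -0.02 over all genes at the floor, and it was -0.07, -0.10, -0.08 and -0.06 at the 4 times. They ran from Pygl at -1.11 to Ifi27 at 1.60. At 4 of 4 times 37 members were below scr, where 25.3% of the genes at the floor were. The 4 sh 14 arrays lay all below scr in 18 members (12.4% of the genes at the floor) and all above in 8 (10.0%). The sh 133 value was below the sh 14 value at 4 of 4 times in 85 members, and this held for 23.8% of the genes at the floor. In 15 members sh 133 was below and sh 14 above scr at each of the 4 times, a pattern of 3.31% of the genes at the floor, and nothing is read from that count either.

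On the map the low values started inside the stretch and ran past its end. The 10 genes at the floor before the stretch had a median of -0.05 in sh 133, from the ribosomal protein gene Rps7 at -0.24 to Eipr1 at 0.14. The 7 members before Ifrd1 had a median of -0.19, and the 107 from Ifrd1 on had -0.56. Of the 107, 101 were below scr at 4 of 4 times, where 20.0% of the genes at the floor were. These edges were set after the values were seen. From Ifrd1 to Fbxo33 the median of 22 members was -0.60 in sh 133 and 0.03 in sh 14. From Klhl28 to Pygl the median of the 16 members was closer to scr in sh 133, at -0.28, and lower in sh 14, at -0.38. Their sh 133 values ran from Pygl at -1.12, the lowest of all members, to Prpf39 at -0.11. In this run 7 members had their sh 133 arrays all below scr (7.12% of the genes at the floor) and 9 their sh 14 arrays (12.4%). From Tmx1 to Dicer1 the 69 members were at -0.59 and -0.08.

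Beyond Clmn the next 10 genes at the floor had a median of -0.41 in sh 133 and -0.03 in sh 14. Among them Snhg10, a host of small nucleolar RNA, was at 0.37, Tcl1b3 at -0.08 and Gskip, a binder of the kinase GSK3, at -0.10. The poly(A) polymerase Papola was at -0.69, the kinase Vrk1 at -0.75, the histidine methyltransferase Setd3 at -0.53 and the transcription factor Yy1 at -0.42. Glrx5, which serves iron-sulfur cluster assembly, was at -0.40, the tryptophan-tRNA ligase Wars at -0.41 and the phosphatase subunit Ppp2r5c at -0.65. Over all 38 genes at the floor after the stretch the median was -0.40 in sh 133 and -0.37 in sh 14, and over the 34 before it -0.07 and 0.19. On the other 19 chromosomes the medians ran from -0.05 (chromosome 15) to 0.05 (chromosome 18) in sh 133 and from -0.10 (chromosome 19) to 0.17 (chromosome 6) in sh 14.

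The 7 members before Ifrd1 ran from -0.41 to 0.52 in sh 133. Hbp1, a repressor of transcription with an HMG box, read at 6.34, 5.18, 5.16 and 5.48 in scr, at 5.58, 5.71, 5.60 and 6.38 in sh 14 and at 6.42, 5.78, 5.75 and 6.30 in sh 133, in each line at 1, 6, 12 and 22 h. It was above scr in sh 133 at 4 of 4 times, by 0.52 ± 0.31 (143% of scr), although the arrays of both lines overlapped because scr at 1 h was high. With the mean over its probe sets in place of the brightest the difference was 0.18. Another of its probe sets at the floor, of mean 5.75, had the opposite sign, at -0.19 in sh 133 and -0.17 in sh 14. Prkar2b, a regulatory subunit of protein kinase A, was at 8.02, 7.93, 7.70 and 7.94 in scr, at 7.09, 7.40, 7.52 and 7.58 in sh 14 and at 7.72, 8.04, 7.97 and 7.92 in sh 133. The sh 133 arrays overlapped those of scr and differed by 0.02 ± 0.24, while all sh 14 arrays were below scr, by -0.50 ± 0.32. Twistnb, a subunit of RNA polymerase I, was at 6.96, 6.71, 6.84 and 6.79 in scr, at 7.33, 7.29, 7.26 and 7.03 in sh 14 and at 6.83, 6.71, 6.77 and 6.65 in sh 133. Here sh 133 overlapped scr (-0.09 ± 0.06) and the sh 14 arrays all lay above it (0.40 ± 0.14). Ccdc71l was at -0.41 in sh 133 and 0.11 in sh 14, Sypl, a vesicle membrane protein related to synaptophysin, at -0.19 and 0.80, and the tetraspanin Tspan13 at -0.22 and 0.34. Bzw2, a mimic of translation initiation factors, was at -0.26 and 0.45, but another of its probe sets at the floor read 0.36 in sh 133 and 1.29 in sh 14.

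**Figure D3:**
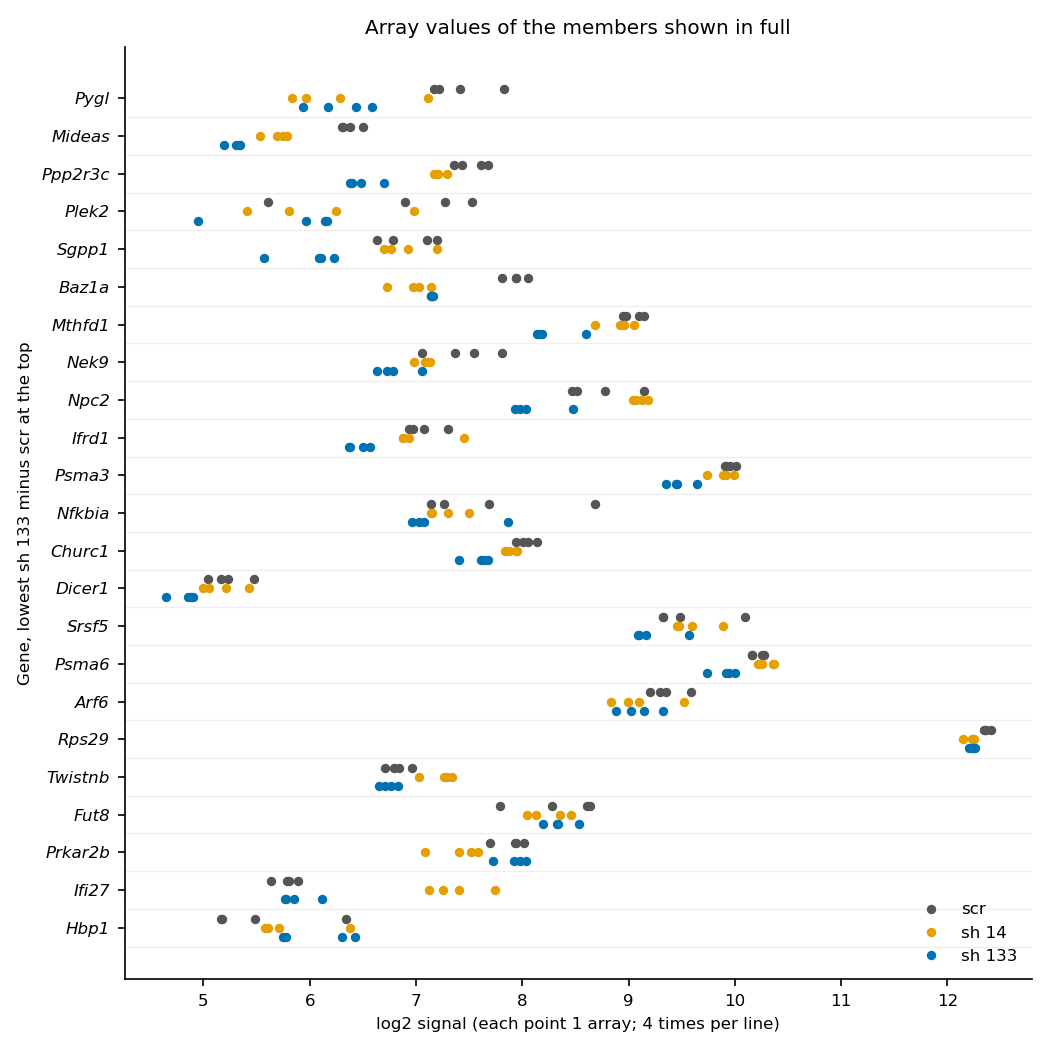
Log2 signal (horizontal axis) on each of the 12 arrays for the 23 members shown array by array (vertical axis, lowest sh 133 difference at the top), with colour for the line and 1 point per array. For Mideas and Ppp2r3c all 4 sh 133 points lie below all scr points, and for Fut8 and Prkar2b they overlap.

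By role, the 91 members that fall in 7 lists written from general knowledge of the genes had medians between -0.63 and -0.41 in sh 133. Of all genes at the floor, 20.0% were below scr at 4 of 4 times in sh 133 and 7.12% had sh 133 arrays all below scr. In sh 14, 12.4% had arrays all below scr and 10.0% all above. The rule used the sh 133 contrast, and nothing is read from such counts in the lists. In the text that follows, each value in parentheses after an sh 133 difference is the sh 14 difference of the same member, both in log2 units against scr.

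Protein breakdown had 11 members of 19 listed genes, with a median of -0.54 in sh 133 and -0.16 in sh 14. All 11 were below scr at 4 of 4 times in sh 133, and 6 had arrays all below scr. Psma6, an alpha subunit of the proteasome core, read at 10.16, 10.16, 10.27 and 10.26 in scr, at 10.37, 10.21, 10.36 and 10.26 in sh 14 and at 10.00, 9.92, 9.95 and 9.74 in sh 133. Its sh 133 arrays were all below scr, by -0.31 ± 0.15 (80.5% of scr), and its sh 14 arrays overlapped scr. Psma3, another alpha subunit, read at 9.91, 9.92, 10.01 and 9.95 in scr, at 9.92, 9.88, 9.99 and 9.74 in sh 14 and at 9.64, 9.46, 9.45 and 9.35 in sh 133. Again all sh 133 arrays were below scr, by -0.47 ± 0.15, and those of sh 14 overlapped it. Psmc1, an ATPase of the regulatory particle, was at -0.39 (-0.14). Among ubiquitin ligase parts, the substrate receptors Fbxo33, Klhl28, Klhdc2 and Dcaf4 were at -0.54 (-0.24), -0.31 (-0.02), -0.25 (-0.16) and -0.73 (-0.23). The ligases Arel1 and Ubr7 were at -0.70 (-0.26) and -0.58 (-0.20). Sel1l, which carries misfolded proteins out of the endoplasmic reticulum for degradation, was at -0.65 (-0.08), and the deubiquitinase Otub2 at -0.59 (-0.18). All these sh 133 values were below 0, the direction by which the stretch was chosen, so nothing is read from it. Klhdc2 was nearest to scr and Dcaf4 farthest from it.

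RNA processing and translation had 17 members of 30 listed genes, with the smallest median difference of the 7 lists, -0.41 in sh 133 and -0.06 in sh 14. In 13 of them the sh 133 arrays were all below scr. Rps29, a protein of the small ribosomal subunit and the brightest of the list, read at 12.41, 12.34, 12.36 and 12.35 in scr, at 12.14, 12.25, 12.24 and 12.23 in sh 14 and at 12.26, 12.24, 12.20 and 12.23 in sh 133. The difference was small, -0.13 ± 0.03 in sh 133 (91.3% of scr) and -0.15 ± 0.08 in sh 14, and in both lines all arrays were below scr. Srsf5, a serine-arginine splicing factor, read at 10.09, 9.32, 9.49 and 9.32 in scr, at 9.89, 9.45, 9.47 and 9.60 in sh 14 and at 9.57, 9.09, 9.16 and 9.10 in sh 133. It was lower at 4 of 4 times in sh 133, by -0.32 ± 0.14, with overlapping arrays. Dicer1, which cuts microRNA precursors and is the last member on the map, read at 5.05, 5.23, 5.47 and 5.17 in scr, at 5.05, 5.42, 5.21 and 4.99 in sh 14 and at 4.86, 4.90, 4.88 and 4.65 in sh 133. All its sh 133 arrays lay below scr, by -0.41 ± 0.18 (75.4% of scr), and the mean over its probe sets gave -0.62. Other splicing proteins were Pnn at -0.31 (0.01), Prpf39 at -0.11 (-0.38), Rbm25 at -0.41 (-0.19) and Snw1 at -0.58 (-0.25). Zc3h14 and Cpsf2, which act on poly(A) tails and on cleavage before tailing, were at -0.70 (-0.07) and -0.56 (-0.20). Zfp36l1, which binds AU-rich elements and promotes decay of messenger RNA, was at -0.64 (0.08). Slirp, a stabiliser of mitochondrial messenger RNA, was at -0.58 (-0.01), and the helicase Ddx24 at -0.54 (-0.13). Nemf, of ribosome quality control, Fcf1, of small-subunit assembly, Eif2b2, of the initiation factor exchange complex, and the demethylase Alkbh1 were at -0.19 (-0.37), -0.43 (-0.04), -0.37 (-0.01) and -0.61 (-0.04).

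Membrane traffic and lysosome had 17 members of 29 listed genes, with a median of -0.47 in sh 133 and 0.09 in sh 14. All 17 were below scr at 4 of 4 times in sh 133, and 9 had arrays all below scr, while in sh 14 none had arrays all below and 2 had arrays all above. Arf6, a small GTPase of endocytosis and actin at the membrane, read at 9.59, 9.35, 9.29 and 9.20 in scr, at 9.52, 8.99, 9.10 and 8.83 in sh 14 and at 9.32, 9.02, 9.15 and 8.88 in sh 133. Both hairpin lines overlapped scr, at -0.26 ± 0.08 in sh 133 and -0.25 ± 0.14 in sh 14. Its other probe sets at the floor, of mean 7.38 and 7.30, were at -0.21 and -0.50 in sh 133 and at -0.28 and -0.64 in sh 14. Npc2, which binds cholesterol in the lysosome, read at 9.14, 8.77, 8.52 and 8.47 in scr, at 9.18, 9.13, 9.04 and 9.07 in sh 14 and at 8.48, 7.98, 7.93 and 8.03 in sh 133. At 4 of 4 times it was below scr in sh 133 (-0.62 ± 0.15, 65.0% of scr) and above it at 4 of 4 times in sh 14 (0.38 ± 0.25). The mean over its probe sets gave -0.33 in sh 133. This takes in probe sets under the floor, of mean 2.99 and 1.39, at -0.002 and 0.05. Its other probe set at the floor was at -0.73. The early secretory genes Sec23a, Trappc6b, Scfd1, Tmed10 and Tmed8, of vesicle coats, tethers, fusion and cargo, were at -0.37 (0.26), -0.39 (0.04), -0.50 (0.02), -0.39 (0.16) and -0.55 (-0.21). The golgins Trip11 and Golga5 were at -0.33 (0.38) and -0.62 (-0.13). Among genes of endosomes and sorting, Snx6 was at -0.39 (0.28), Ap4s1 at -0.77 (0.03), Vti1b at -0.59 (-0.01) and Vipas39 at -0.66 (0.09). Sptlc2 and Sptssa, subunits of serine palmitoyltransferase, the entry step of sphingolipid synthesis, were at -0.41 (0.33) and -0.43 (0.23). The proton pump subunit Atp6v1d was at -0.47 (0.13), and Tmx1, a redox protein of the endoplasmic reticulum, at -0.65 (-0.13). Values for sh 14 were above 0 in most of these and below 0 in most proteasome and ligase genes, a difference in sign that was not tested.

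Mitochondria and metabolism had 16 members of 34 listed genes and the lowest median of the lists in sh 133, -0.63 (64.5% of scr), beside -0.03 in sh 14. In 13 of the 16 the sh 133 arrays were all below scr. Pygl, the liver form of glycogen phosphorylase, which releases glucose units from glycogen, read at 7.83, 7.17, 7.22 and 7.41 in scr, at 6.28, 5.84, 5.96 and 7.11 in sh 14 and at 6.58, 5.94, 6.17 and 6.43 in sh 133. It was the lowest member in both lines, at -1.12 ± 0.13 in sh 133 (45.9% of scr) and -1.11 ± 0.55 in sh 14, with all arrays of both below scr. Sgpp1, a phosphatase of sphingosine 1-phosphate, read at 7.20, 7.10, 6.78 and 6.63 in scr, at 7.20, 6.77, 6.92 and 6.70 in sh 14 and at 6.08, 6.23, 6.11 and 5.57 in sh 133. All sh 133 arrays were below scr, by -0.93 ± 0.20 (52.5% of scr), and those of sh 14 overlapped it at -0.03 ± 0.21. Mthfd1, the trifunctional enzyme of the folate cycle, read at 8.98, 8.95, 9.10 and 9.15 in scr, at 8.92, 8.96, 9.05 and 8.68 in sh 14 and at 8.60, 8.14, 8.19 and 8.16 in sh 133. Its sh 133 arrays lay all below scr, by -0.77 ± 0.27 (58.6% of scr), and the value at 1 h stood above the other sh 133 values. Fut8, the fucosyltransferase of the N-glycan core, read at 8.61, 8.64, 8.28 and 7.79 in scr, at 8.04, 8.36, 8.46 and 8.13 in sh 14 and at 8.53, 8.32, 8.34 and 8.19 in sh 133. It differed by 0.02 ± 0.30 in sh 133 and -0.08 ± 0.42 in sh 14, with overlap in both and with signs that changed between times. Respiratory chain members Cox16, Ndufb1 and Dmac2l, of complex IV, complex I and ATP synthase, were at -0.91 (0.02), -0.56 (-0.32) and -0.58 (-0.45). Timm9, a chaperone of protein import, was at -0.80 (-0.04), Isca2, of iron-sulfur cluster assembly, at -0.59 (0.05), Coq6, of ubiquinone synthesis, at -0.30 (0.22), and the outer membrane protein Synj2bp at -0.48 (-0.08). Dlst, a subunit of the 2-oxoglutarate dehydrogenase complex, was at -0.46 (0.01). The lipid and retinoid enzymes Pnpla8 and Rdh11 were at -0.68 (0.09) and -0.70 (0.06), the acylphosphatase Acyp1 at -0.76 (0.12) and the glycosyltransferase Mgat2 at -0.34 (-0.62).

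Transcription regulators had 12 members of 26 listed genes, with medians of -0.56 in sh 133 and -0.11 in sh 14, and 9 had sh 133 arrays all below scr. Ifrd1, a transcriptional coregulator, read at 6.97, 6.94, 7.07 and 7.30 in scr, at 7.45, 6.88, 6.94 and 6.87 in sh 14 and at 6.38, 6.50, 6.57 and 6.37 in sh 133. All sh 133 arrays were below scr, by -0.62 ± 0.22 (65.2% of scr), and sh 14 overlapped scr, with its 1 h array above the rest. Churc1, a zinc finger protein, read at 8.05, 8.00, 7.94 and 8.14 in scr, at 7.84, 7.87, 7.95 and 7.94 in sh 14 and at 7.41, 7.64, 7.68 and 7.61 in sh 133. All sh 133 arrays were below scr, by -0.45 ± 0.17. The mean over its probe sets gave -0.25, but its other probe set, of mean 0.89, was under the floor. Mideas, of a histone deacetylase complex, read at 6.30, 6.31, 6.38 and 6.50 in scr, at 5.53, 5.69, 5.75 and 5.78 in sh 14 and at 5.34, 5.19, 5.33 and 5.31 in sh 133. All arrays of both hairpin lines were below scr, by -1.08 ± 0.10 in sh 133 (47.3% of scr) and -0.68 ± 0.07 in sh 14. The mean over its probe sets was at -0.30 in sh 133. Its other probe sets, of mean 2.02, 1.66 and 1.25, were all under the floor, so that no second reading at the floor stands beside the brightest. Gtf2a1 and Med6, of the basal and the Mediator machinery, were at -0.53 (-0.08) and -0.35 (-0.17). The zinc finger proteins Zfp277, Zfp410 and Zbtb1 were at -0.60 (0.52), -0.60 (-0.23) and -0.20 (-0.24). Mbip was at -0.71 (0.21), Ylpm1 at -0.40 (-0.09), the clock repressor Cipc at -0.79 (-0.16) and the forkhead protein Foxn3 at -0.26 (0.45). Zbtb1 and Foxn3 were thus nearest to scr in sh 133.

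Signalling and cytoskeleton had 12 members of 36 listed genes, with medians of -0.62 in sh 133 and -0.21 in sh 14. All 12 were below scr at 4 of 4 times in sh 133, and 9 had arrays all below scr. Ppp2r3c, a regulatory subunit of protein phosphatase 2A, read at 7.68, 7.36, 7.61 and 7.43 in scr, at 7.19, 7.17, 7.21 and 7.30 in sh 14 and at 6.70, 6.39, 6.48 and 6.38 in sh 133. All arrays of both hairpin lines were below scr, by -1.03 ± 0.08 in sh 133 (48.8% of scr) and -0.31 ± 0.17 in sh 14. The mean over its probe sets was at -0.68 in sh 133, with the others, of mean 3.17 and 1.62, under the floor. Nfkbia, the inhibitor that holds NF-kappa B in the cytoplasm, read at 8.69, 7.69, 7.26 and 7.14 in scr, at 7.50, 7.30, 7.15 and 7.14 in sh 14 and at 7.86, 7.07, 7.02 and 6.96 in sh 133. It was lower at 4 of 4 times in sh 133, by -0.47 ± 0.31, with overlapping arrays and a wide spread. Plek2 read at 5.61, 6.89, 7.27 and 7.53 in scr, at 5.41, 5.81, 6.25 and 6.98 in sh 14 and at 4.95, 5.97, 6.15 and 6.16 in sh 133. Its signal was higher at 22 h than at 1 h in each line, and the sh 133 and scr arrays overlapped although sh 133 was lower at each matched time, by -1.02 ± 0.30 (49.3% of scr). In sh 14 Plek2 was also lower at 4 of 4 times, by -0.72 ± 0.42. The other phosphatase genes, Ppp2r5e, Ppm1a and the striatin Strn3, were at -0.73 (0.07), -0.67 (0.09) and -0.60 (0.27). The Ras exchange factor Sos2 and the Ral GTPase-activating subunit Ralgapa1 were at -0.35 (-0.52) and -0.73 (-0.08). Sav1, a scaffold of the Hippo pathway, was at -0.33 (-0.43), the Notch inhibitor Numb at -0.58 (-0.21), the formin Daam1 at -0.64 (-0.22) and Heatr5a at -0.37 (-0.15). Another Daam1 probe set at the floor, of mean 5.09, had the opposite sign in sh 14, at -0.85 (0.98). Sos2 and Sav1 lie in the run from Klhl28 to Pygl and were among the members of this list nearest to scr in sh 133.

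Genome maintenance and division had 6 members of 15 listed genes, with medians of -0.54 in sh 133 and -0.17 in sh 14, and 4 had sh 133 arrays all below scr. Baz1a, a subunit of the ACF chromatin remodeller, read at 7.81, 7.94, 7.94 and 8.05 in scr, at 6.73, 6.97, 7.14 and 7.02 in sh 14 and at 7.16, 7.15, 7.14 and 7.14 in sh 133. All arrays of both hairpin lines were below scr, by -0.79 ± 0.10 in sh 133 (57.9% of scr) and -0.97 ± 0.12 in sh 14. Nek9, a mitotic kinase, read at 7.81, 7.55, 7.37 and 7.05 in scr, at 6.98, 7.13, 7.09 and 7.11 in sh 14 and at 7.06, 6.73, 6.78 and 6.63 in sh 133. It was lower at 4 of 4 times in sh 133, by -0.65 ± 0.18 (63.9% of scr), with arrays that overlapped scr. Mnat1, an assembly factor of the kinase that activates cyclin-dependent kinases, was at -0.48 (0.41). The topoisomerase-adduct repair enzyme Tdp1 was at -0.59 (0.17), the microtubule protein Togaram1 at -0.26 (0.03) and the phosphatase 4 subunit Ppp4r3a at -0.27 (-0.75).

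**Figure D4:**
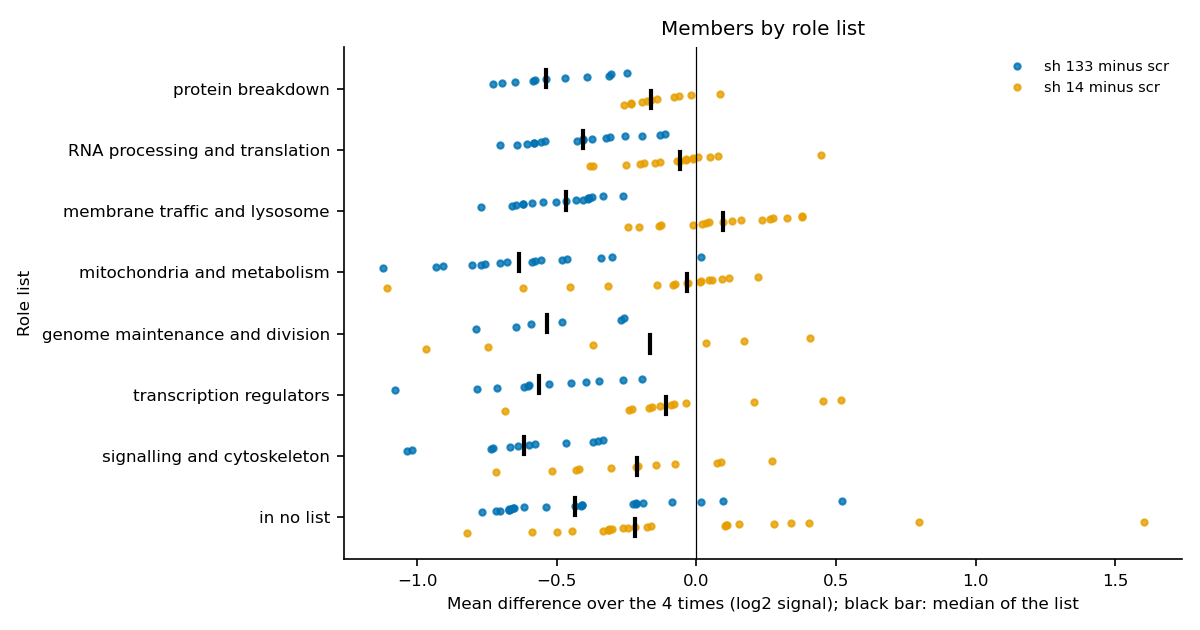
Mean log2 difference from scr over the 4 times (horizontal axis) of each member by role list, sh 133 and sh 14 in separate colours, with list medians marked. The sh 133 medians lie between -0.63 (mitochondria and metabolism) and -0.41 (RNA processing and translation).

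The remaining 23 members are in no list, and their medians were -0.43 in sh 133 and -0.22 in sh 14. Ifi27, an interferon-induced membrane protein, read at 5.89, 5.79, 5.80 and 5.64 in scr, at 7.12, 7.25, 7.40 and 7.75 in sh 14 and at 5.85, 5.77, 5.77 and 6.11 in sh 133. In sh 133 it overlapped scr, at 0.10 ± 0.25, and in sh 14 all arrays were above scr, by 1.60 ± 0.37. Another of its probe sets at the floor read 0.11 in sh 133 and 1.53 in sh 14. The co-chaperone Ahsa1 was at -0.54 (-0.31) and the prolyl isomerase Fkbp3 at -0.43 (-0.16). Lrr1, a cullin ligase receptor, Dnaaf2, of dynein assembly, and Vcpkmt, a methyltransferase of the ATPase VCP, were at -0.21 (-0.59), -0.41 (-0.82) and -0.23 (-0.24). All 3 lie in the run from Klhl28 to Pygl, and Lrr1 and Dnaaf2 were lower in sh 14 than in sh 133. Riox1, a ribosomal oxygenase, was at -0.72 (-0.18), Ptgr2, a prostaglandin reductase, at -0.67 (-0.45), and Erg28, of sterol synthesis, at -0.70 (-0.26). The polarity scaffold Mpp5 was at -0.66 (-0.33), the receptor-anchoring protein Gphn at -0.65 (0.15), and Jkamp, of the endoplasmic reticulum membrane, at -0.62 (-0.31). Eapp, which binds E2F factors, was at -0.66 (0.11), 2700097O09Rik at -0.67 (-0.22) and Nrp at -0.67 (-0.32). Prps1l3 and Rnf113a2, at -0.77 (-0.30) and -0.41 (0.10), resemble genes on other chromosomes, and their probe sets may read those too.

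The members' other probe sets were not used as the brightest, but they read the same genes in the contrast and arrays that chose the stretch. Nothing is read from their counts below scr, and the share over all such probe sets was not computed. At the floor there were 60 such probe sets of 42 genes, with a median sh 133 difference of -0.49, and 56 were below scr. The exceptions were probe sets of Bzw2, Ifi27 and Prkar2b, the last with 2, at 0.06 and 0.24. Probe sets of mean 3 to under 5 numbered 52, with a median of -0.51, and 48 were below scr. The 66 of mean under 3 had a median of -0.09. Stretch genes under the floor followed the same steps, with a median of -0.48 in the 76 of mean 3 to under 5 and 0.02 in the 186 of mean under 3. Within the members the median was -0.58 for the 45 of mean 5 to under 6, -0.60 for the 32 of 6 to under 7, -0.46 for the 24 of 7 to under 8 and -0.43 for the 13 brighter ones. Across the 114 members mean signal and sh 133 difference correlated weakly (r = 0.17, rho = 0.14).

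A change that the rule did not use is that from 1 to 22 h. It was tested with limma over all 12673 genes past the filter on low values, with terms for line, time and date string and Benjamini-Hochberg adjustment over all genes. Of the 114 members 12 rose, where 8.74% of all genes tested and 10.3% of the genes at the floor did. Another 19 fell, where 9.34% and 11.8% did. The median change was -0.05 in the members, -0.03 in the genes at the floor and 0.02 in all genes tested. Plek2 rose by 1.57 ± 0.18 log2 (SE, 12 arrays; limma adjusted p = 0.000277), from a mean of 5.32 at 1 h to 6.89 at 22 h over the 3 lines. The deubiquitinase Otub2 rose by 1.19 ± 0.16 (adjusted p = 0.000628), and the decay factor Zfp36l1 by 0.69 ± 0.08 (adjusted p = 0.000422), with 0.69, 0.67 and 0.70 in scr, sh 14 and sh 133. Atp6v1d rose by 0.59 ± 0.13 (adjusted p = 0.0127). Without the sh 133 array of 1 h or that of 22 h this was 0.39 and no longer passed (adjusted p = 0.0961). Only sh 133 has arrays of both date strings. With either of these arrays left out, the date term takes up the other, and the estimate comes from scr and sh 14 alone. The formin Daam1 rose by 0.56 ± 0.09 (adjusted p = 0.00186), but by 0.15 with the mean over its probe sets, which did not pass (adjusted p = 0.235).

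**Figure D5:**
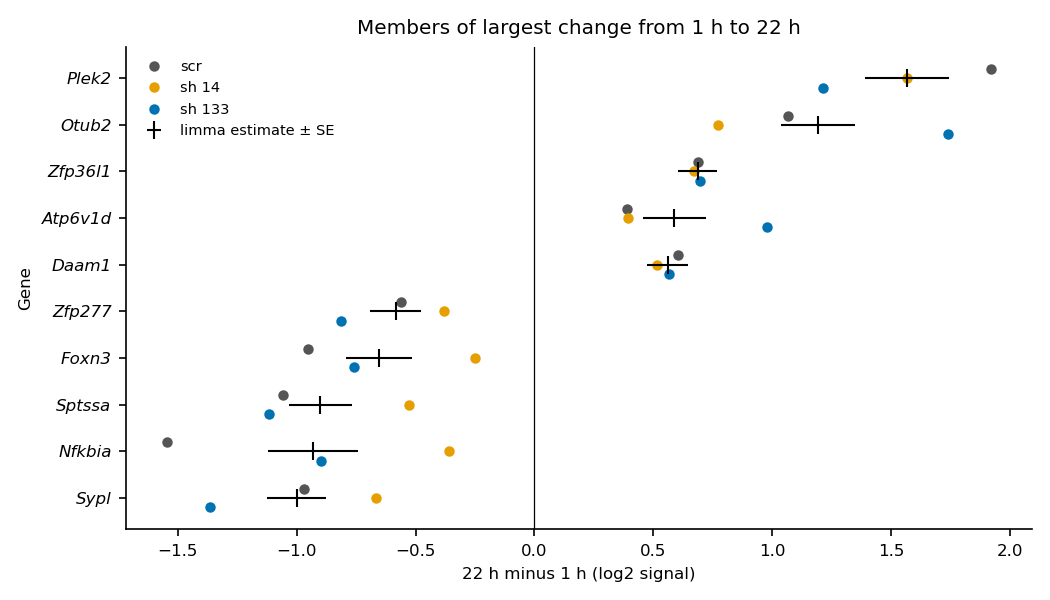
Log2 change from 1 to 22 h (horizontal axis) in each of the 3 lines (points) for the 10 named members (vertical axis), with the limma estimate ± SE as a black cross. All 3 lines have the same sign for each gene, with Plek2 highest and Sypl lowest on average.

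Among members that fell, Sypl changed by -1.0 ± 0.12 (adjusted p = 0.000471) and Nfkbia by -0.93 ± 0.19 (adjusted p = 0.00751). For Nfkbia the change was -1.54 in scr, -0.36 in sh 14 and -0.90 in sh 133. Sptssa, the small subunit of serine palmitoyltransferase, changed by -0.90 ± 0.13 (adjusted p = 0.00131) and Zfp277 by -0.58 ± 0.11 (adjusted p = 0.00493). Foxn3 changed by -0.65 ± 0.14 (adjusted p = 0.00927), and without the sh 133 array of 1 h or that of 22 h by -0.60, which did not pass (adjusted p = 0.0691). Without either of these arrays the members that fell numbered 11 in place of 19, and the share over all genes was not computed. In these fits too the change comes from scr and sh 14 alone. By list, membrane traffic had 4 members that rose and 4 that fell, transcription regulators 2 and 3, RNA processing 1 and 3, and genome maintenance none in either direction. Of all genes at the floor 10.3% rose and 11.8% fell. Each line has 1 array per time, so whether the lines differ in their change with time was not tested.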

How the data were processed

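Per the labels' protocols, biotin-labelled products amplified from total RNA were read on Affymetrix mouse arrays. The authors deposited log2 probe set signals, for which the submitters' processing notes name RMA. RMA makes array distributions alike, so changes in total RNA cannot be read. Precision is limited by the number of arrays.

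Of 45101 probe sets the platform annotation tied 34958 to 1 gene, 932 to several and 9211 to none, and 34754 were matched to RefSeq GRCm38.p6, used for symbols and map order. The brightest probe set stood for each of 18195 genes. The members, lists and settings were chosen with earlier results of these data known.

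Differences between lines were taken at matched times, with no test. The change from 1 to 22 h was fitted with limma 3.58.1 in R 4.3.3 over 12673 genes above the 40th percentile of signal (log2 1.45), with line, time and date string, 5 residual degrees of freedom and an adjusted p threshold of 0.05. The fit was tested on simulated data. The median SE of a member was 0.11. Replicate numbers follow deposit order and pair nothing.

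Named members follow one rule. All are named with their sh 133 difference. Array values are given for the ends of the map, the 5 lowest and 5 highest, and the 2 brightest of each role list. Up to 5 members in each direction are named for the change with time. Alternatives were other floors and filters, mean probe sets, centred arrays, no date term, date strings apart and each array left out.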

Additional observations from a re-analysis of the deposited data

Results flagged for a closer look

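In 23 of 345 groups of 4 arrays looked at (each member, and their median, in each line), the array at one end stood far from the others, by a gap above Dixon's 95% critical value for the share of the group's whole range. Chance flags about 1 in 20 such groups, and the 4 arrays of a group differ in time. The scr array of 1 h stood apart for Zfp277 (0.94) and Cipc (0.889). The scr array of 6 h stood apart for Prps1l3 (0.877) and Coq6 (0.95). The scr array of 22 h stood apart for Trappc6b (0.9). The sh 14 array of 1 h stood apart for Ccdc71l (0.951), Ifrd1 (0.893), Mbip (0.831), Rps29 (0.841) and Dmac2l (0.88). The sh 14 array of 6 h stood apart for Lrr1 (0.965). The sh 14 array of 22 h stood apart for Hbp1 (0.835), Bzw2 (0.912), Cox16 (0.864) and Riox1 (0.883). The sh 133 array of 1 h stood apart for Nfkbia (0.88), Mthfd1 (0.893), Plek2 (0.838), Srsf5 (0.851), Acyp1 (0.889) and Nrp (0.848). The sh 133 array of 12 h stood apart for Prps1l3 (0.86). The sh 133 array of 22 h stood apart for Psmc1 (0.925). Each value in parentheses is the gap as a share of the range.

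In 15 members sh 133 was below scr at 4 of 4 times and sh 14 above scr at 4 of 4 times, as were 3.31% of the genes at the floor. The low sh 133 values chose the stretch, so nothing is read from this count. The difference between the hairpins was not tested. The mean log2 value of sh 133 minus sh 14 was Tspan13 at -0.56, Zfp277 at -1.12, Strn3 at -0.87, Eapp at -0.77, Snx6 at -0.66, Mbip at -0.92, Sec23a at -0.64, Mnat1 at -0.89, Gphn at -0.80, Zfp36l1 at -0.72, Coq6 at -0.52, Npc2 at -1.0, Tmed10 at -0.55, Sptlc2 at -0.73 and Trip11 at -0.71. Both contrasts use the same scr arrays.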

How the results depend on the processing

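No paired analysis was possible because the replicate numbers follow deposit order and pair nothing. Line differences were instead paired by time, and the fit over time held line as a term. With a floor of log2 4 (162 genes) 1 member had its sh 133 arrays all above scr, the sh 14 median was -0.037 and 15 members had sh 14 arrays all above scr. With a floor of 6 (69 genes) the sh 133 median was -0.50, 49 members had sh 133 arrays all below and 4 had sh 14 arrays all above scr, and 6 rose and 12 fell with time. With the mean over probe sets, which takes in those under the floor, the sh 133 median was -0.43 and 5 members had sh 14 arrays all above scr. With arrays centred on their medians the sh 14 median was -0.11. The sh 133 median was -0.51 with shared and -0.51 with different date strings. Leaving out each array in turn gave medians of -0.54 to -0.52 in sh 133 and -0.09 to -0.08 in sh 14. Members with arrays all below scr then numbered 76 to 85 and 18 to 26, and all above 0 to 1 and 8 to 14, the last highest without scr at 1 h (14) and sh 14 at 22 h (13). Leaving out an array can only keep or raise such a count, so these ranges could not show a fall. For the changed settings of this paragraph the shares over all genes were not computed, so nothing is read from its counts. With each array left out, 9 to 14 members rose and 11 to 24 fell with time. The count of 11 is without sh 133 at 1 or 22 h, where the change comes from scr and sh 14 alone. Without the 7 members before Ifrd1, a setting chosen after seeing the data, the sh 133 median was -0.56. Of the 23 members shown, the sign of the sh 133 difference changed under some setting for Fut8, Ifi27 and Prkar2b. No median or call reversed under the settings run. The cause of these shifts was not tested. Signals near background limit the dim genes.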
